A study of Mus musculus with 12 samples.

Results

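The 60 min and 90 min steps of a 4-thiouridine (4sU) labelling time course were compared in NIH-3T3 cells, an established mouse fibroblast line with the genotype given as WT. The libraries were chosen by their labelled duration, which gave 4 of the 12 libraries of the series, replicates A and B at each time. Both groups received 4sU at 800 µM and the same iodoacetamide treatment, so that only the length of exposure separated them by label. The series asks how the labelling duration biases quantification, and the comparison covers the 30 min between both steps. Nothing in the labels says that A and B came from separate cultures, so the p-values measure only the spread between these libraries, which may be technical.

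4sU is a uridine analogue that cells take up and build into RNA as it is transcribed. Iodoacetamide modifies the incorporated 4sU, which is then read as C. The new-to-total ratio (NTR) is the share of a gene's RNA that is estimated from such changes to be new. Stable messages such as those for ribosomal proteins and collagens are replaced slowly and keep a low NTR, whereas messages for transcription factors, cell cycle regulators and other feedback genes turn over fast and become mostly new RNA within a short labelling period.

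The 4 libraries held 10093027 (60 min A), 13224762 (60 min B), 10506601 (90 min A) and 10519498 (90 min B) reads. All 10 fibroblast markers examined were tested, with Fn1 at 70682 to 95676 reads and Vim at 42122 to 56086. Markers of other cell types were low or mixed. Kdr (endothelial), Ckm (muscle) and Plin1 (fat) had 0 reads in all 4 libraries and Ptprc (haematopoietic) 0 to 1. The highest marker of each other type was Lpl for fat (310 to 463 reads, followed by Fabp4 with 47 to 83), Tubb3 for neurons (62 to 100), Cd68 for haematopoietic cells (47 to 73), Acta1 for muscle (28 to 50), Cdh5 for endothelium (14 to 16) and Krt14 for epithelium (5 to 7). Of these lists 7 genes were tested and 0 passed with edgeR (1 higher and 0 lower at an unadjusted p below 0.05) or DESeq2. Levels are given as CPM, counts scaled to the size of each library. In bulk RNA, fewer cells expressing a gene and less RNA per cell cannot be told apart.

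Few gene levels passed the test in the interval, and most of those that did were lower at 90 min. Of 11526 genes tested, 20 (0.174%) had an adjusted p below 0.05, 2 higher (0.0174%) and 18 lower (0.156%) (edgeR quasi-likelihood test, Benjamini-Hochberg adjustment). The falls included the amino acid transporter Slc38a2, the anti-apoptotic Bcl2 family member Mcl1, the growth arrest gene Gas1, the mitotic inhibitor kinase Wee1 and the transcriptional repressor Hbp1. The nuclear non-coding RNA Malat1 and the smooth muscle actin Acta2 rose. The median log2 fold change of the 18 falls was -0.29, beside -0.00052 over all genes tested. Without adjustment, 1131 genes (9.81%) had a p below 0.05, 468 higher (4.06%) and 663 lower (5.75%). In all 20 the 60 and 90 min libraries did not overlap in CPM, as in 39.8% of all genes tested.

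The count of calls rested on single libraries. Leaving out 60 min B left 1 gene, Slc38a2, and leaving out 90 min B left 4, of which Slc38a2 and Gas1 were among the 20 and Lbh and Scgb1a1 were not. Without 60 min A there were 25 genes, 12 of them shared, and without 90 min A there were 15, with 11 shared. All 20 genes kept their direction in each of these fits, and only Slc38a2 passed in all 4, with a highest adjusted p of 0.028. Wee1, Cited2, Fnip1, Ppp4r3a and Map3k2 passed in 0 of the 4. DESeq2 called 2 genes, Mat2a and Slc38a2, and gave 405 genes an unadjusted p below 0.05.

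The last 60 coding bases of 5 falling transcripts, stop codon included, are shown with those of Jun and Ier2, short-lived transcripts that did not pass the test, because the uridine content of the falls was examined. Capitals mark T, the positions where U, and so 4sU, can stand. Sequences and positions are from GENCODE M21 on GRCm38, written 5′ to 3′ on the coding strand, and each window lies in the last exon of its transcript.
Slc38a2, chr15:96690127-96690186, minus strand: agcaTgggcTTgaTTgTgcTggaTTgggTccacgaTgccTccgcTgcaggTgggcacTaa
Stk17b, chr1:53757488-53757547, minus strand: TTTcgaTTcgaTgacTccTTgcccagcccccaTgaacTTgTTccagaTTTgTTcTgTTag
Mcl1, chr3:95660764-95660823, plus strand: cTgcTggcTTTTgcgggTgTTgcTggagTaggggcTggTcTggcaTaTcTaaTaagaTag
Trim59, chr3:69036794-69036853, minus strand: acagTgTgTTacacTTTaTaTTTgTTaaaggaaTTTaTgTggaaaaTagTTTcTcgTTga
Ppp4r3a, chr12:101040669-101040728, minus strand: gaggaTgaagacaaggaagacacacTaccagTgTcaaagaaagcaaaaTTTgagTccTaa
Jun, chr4:95050267-95050326, minus strand: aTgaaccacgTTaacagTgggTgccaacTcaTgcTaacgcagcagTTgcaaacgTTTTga
Ier2, chr8:84662086-84662145, minus strand: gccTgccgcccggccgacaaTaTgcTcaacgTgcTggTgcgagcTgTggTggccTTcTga
In these windows T made up 25% of the bases in Slc38a2, 36.7% in Stk17b, 31.7% in Mcl1, 41.7% in Trim59 and 15% in Ppp4r3a, beside 23.3% in Jun and 21.7% in Ier2. The median of the same window over 11074 genes was 21.7%. A window was read for 14 of the falls, each within a single exon. Of these, 12 lay above that median, beside 4619 of the 11074 genes. Ppp4r3a and Hmgcs1 (18.3%) lay below it. No window was read for Map3k2, Marchf7 and Pank3, and the reason is not given for each gene. The 11074 genes did not go through the same selection, and were not limited to windows within a single exon. Sgk1, which did not pass, had 28.3%.

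Slc38a2, a neutral amino acid transporter that cells raise when amino acids are scarce, gave the lowest adjusted p. The gene spans chr15:96687392-96699730 on the minus strand. It stood at 487 and 496 CPM in 60 min A and B and at 419.6 and 386 CPM at 90 min. Both 90 min libraries lay below both at 60 min, with a difference of -0.29 on the log2 scale (SE 0.0387, adjusted p = 9.6e-05, edgeR). Its NTR went from 51.6% and 52.96% to 78.5% and 74.6%. Multiplied by the CPM, this put its new RNA at 257 CPM ± 8.18 (SD, n = 2) at 60 min and 309 ± 29.8 at 90 min, while its old RNA went from 234 ± 1.44 to 94.1 ± 5.65. The gain in new RNA was smaller than the loss of old RNA, which follows from the lower total level.

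Mat2a, which makes the methyl donor S-adenosylmethionine, was at 506 and 512 CPM at 60 min and at 453 and 438 CPM at 90 min. The difference was -0.19 on the log2 scale (SE 0.0352, adjusted p = 0.0103, edgeR), and it is named here after its values were seen. Mcl1 went from 143 and 154 CPM to 126 and 116 CPM, with a log2 fold change of -0.30 (SE 0.0554, adjusted p = 0.0113, edgeR). In both genes the 60 and 90 min libraries were separate.

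Several falls were regulators of growth and the cell cycle. Gas1, a membrane protein first known from growth-arrested fibroblasts, lies on chr13:60174405-60177365 as a single exon and had 55.3 and 54.1 CPM at 60 min and 39.6 and 42.9 CPM at 90 min (log2 fold change -0.41, SE 0.0710, adjusted p = 0.00966, edgeR). Hbp1, an HMG-box repressor of cell cycle genes, had 44.2 and 43.2 CPM, then 33.7 and 30.7 CPM (-0.44, adjusted p = 0.0103). Wee1, the kinase that holds Cdk1 inactive, had 28.2 and 29.2 CPM, then 21.0 and 21.5 CPM (-0.44, adjusted p = 0.0433). The fitted change of these 3 genes was -24.5%, -26.2% and -26.2%. Cited2, a transcriptional co-regulator that binds CBP and p300, lost less, from 138 and 142 CPM to 121 and 119 CPM (-0.23, adjusted p = 0.0288), and is named after its values were seen.

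Signalling and protein modification genes made up another group. The apoptosis-related kinase Stk17b was at 25.8 and 30.1 CPM at 60 min and at 21.3 and 19.4 CPM at 90 min (log2 fold change -0.47, adjusted p = 0.0288, edgeR). Map3k2, a kinase upstream of the MAP kinases, had 53.9 and 54.1 CPM, then 42.2 and 44.6 CPM (-0.32, adjusted p = 0.0457). The ubiquitin ligase Marchf7 had 75.4 and 76.8 CPM, then 65.7 and 59.4 CPM (-0.28, adjusted p = 0.0363). None of these showed an overlap between times, and Stk17b had the widest gap between its 60 min replicates. Trim59, another RING protein, went from 88.4 and 96.1 to 80.5 and 72.2 CPM (-0.28, adjusted p = 0.0431). Ppp4r3a, a regulatory subunit of protein phosphatase 4, went from 92.9 and 90.02 to 76.9 and 75.5 CPM (-0.26, adjusted p = 0.0347). Zmym2, a zinc finger protein of chromatin complexes, went from 38.9 and 37.5 to 30.3 and 26.4 CPM (-0.43, adjusted p = 0.0265).

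The remaining falls were metabolic genes, a zinc finger gene and a non-coding RNA. Hmgcs1, which makes HMG-CoA for cholesterol synthesis, went from 319 and 331 CPM to 294 and 268 CPM (log2 fold change -0.21, adjusted p = 0.0258, edgeR). Pank3 (coenzyme A synthesis, -0.25, adjusted p = 0.0288), Fnip1 (a folliculin partner in nutrient sensing, -0.25, adjusted p = 0.0363) and Zfp871 (-0.25, adjusted p = 0.0473) are named after their values were seen. The Pank3 value was -0.15 (adjusted p = 0.537) without 90 min B. Dnm3os, the transcript that hosts the miR-199a and miR-214 precursors, had the lowest fitted fold change of the 18. It stood at 17.6 and 19.7 CPM at 60 min and at 13.0 and 12.3 CPM at 90 min (-0.57, SE 0.116, adjusted p = 0.0265). Dnm3os is annotated as antisense, and no source used here states whether counting used strand, so its reads cannot be told apart from those of an overlapping gene.

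**Figure D1:**
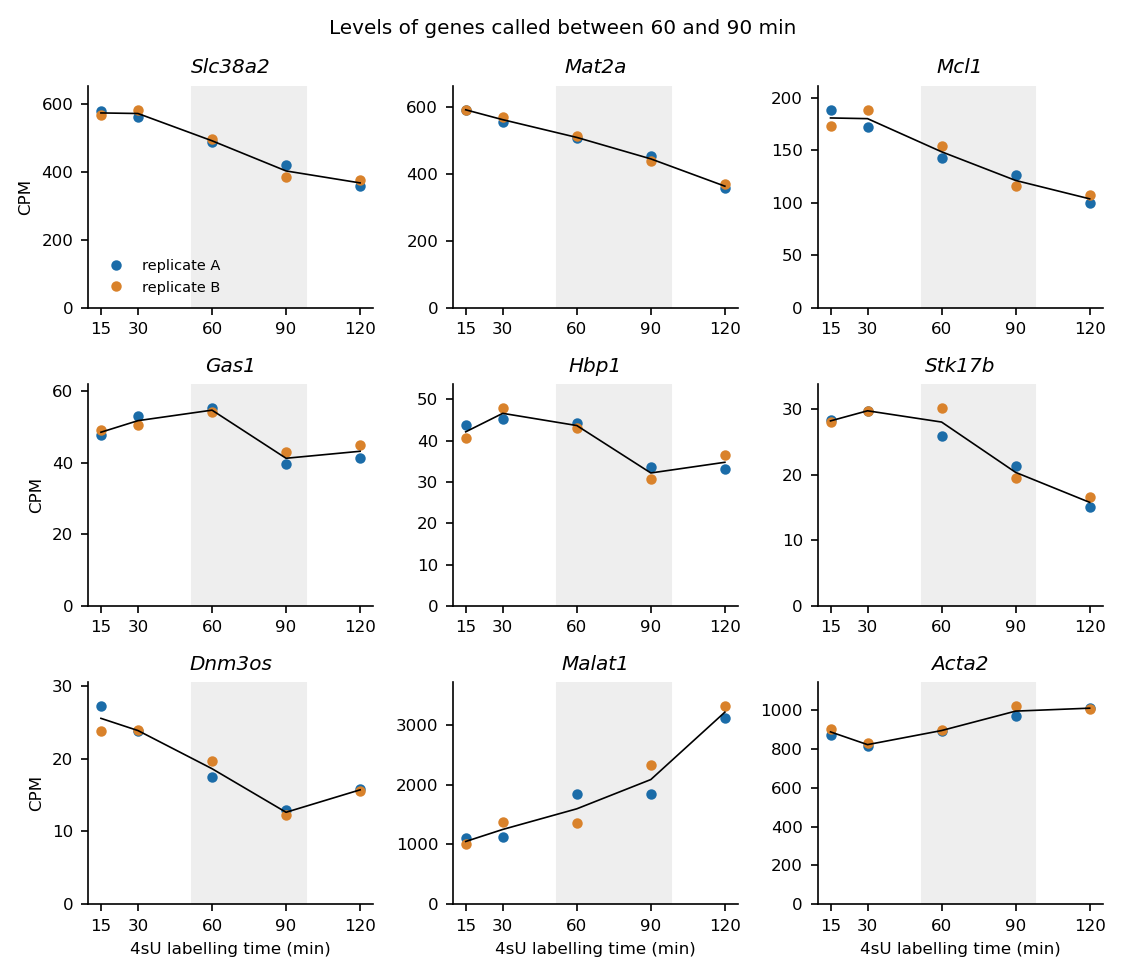
CPM of 9 of the 20 genes that passed the test against labelling time in minutes, 1 point per library (blue A, orange B), the line joining means of 2 libraries and the grey band marking the 60 to 90 min interval. Slc38a2 fell from a mean of 491 to 403 CPM and Gas1 from 54.7 to 41.3 CPM, and the Malat1 points of replicate A were level at 1839 and 1848 CPM.

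The plot of levels by labelling time sets the interval beside the other durations. Mean Slc38a2 was 573 CPM ± 9.54 (SD, n = 2) at 15 min and 367 ± 10.8 at 120 min, so that its level was lower at each later step from 30 min on. Gas1 differed from this order, with 48.6 ± 0.944 CPM at 15 min, a highest mean of 54.7 ± 0.860 at 60 min and 43.2 ± 2.50 at 120 min. Dnm3os had its lowest mean, 12.6 ± 0.488, at 90 min and 15.7 ± 0.143 at 120 min.

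Malat1, an abundant long non-coding RNA held in nuclear speckles, is annotated at chr19:5795690-5802672 on the minus strand and was at 1839 and 1350.1 CPM in 60 min A and B and at 1848 and 2321 CPM at 90 min. The groups did not overlap, but 60 min A and 90 min A were nearly equal. The log2 fold change was 0.39 (SE 0.0812, adjusted p = 0.0288, edgeR), and it was 0.18 (adjusted p = 0.62) without 60 min B, 0.22 (0.532) without 90 min B and 0.63 (4.16e-06) without 60 min A. Its NTR was 17.6% and 20.2% at 60 min and 23.3% and 17.6% at 90 min, which did not pass (limma adjusted p = 0.475). RNA counted as old went from 1297 CPM ± 310.4 to 1665 ± 349 (SD, n = 2), and the libraries of both times overlapped in this measure. New Malat1 went from 298 ± 35.4 to 419.5 ± 14.3 CPM.

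Acta2, the smooth muscle actin that also marks contractile fibroblasts, spans chr19:34241090-34255590 on the minus strand and was at 894 and 897 CPM at 60 min and at 971 and 1021 CPM at 90 min. It differed by 0.15 on the log2 scale (SE 0.0333, adjusted p = 0.0363, edgeR) and 0.13 with library sizes alone, where it did not pass (adjusted p = 0.0821). Almost none of this RNA was new, with an NTR of 0.54% and 0.34% at 60 min and 0.54% and 0.19% at 90 min. New Acta2 went from 3.94 ± 1.26 to 3.59 ± 2.33 CPM (SD, n = 2), and RNA counted as old from 892 ± 3.75 to 992 ± 38.2 CPM. CPM is relative to the size of each library, and what lay behind the rise was not tested. Tagln, another contractile protein gene, had 254 and 228 CPM and then 268 and 270.03 CPM, and did not pass (log2 fold change 0.17, adjusted p = 0.122).

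With only 2 rises past the threshold, the 3 next by p are given as values that did not pass. Ahnak, a giant scaffold protein gene, had a log2 fold change of 0.15 (adjusted p = 0.0684, edgeR) and Dym, a Golgi protein gene, of 0.34 (adjusted p = 0.0787). Kcnq1ot1, an imprinted nuclear antisense RNA, had 28.4 and 17.8 CPM at 60 min and 31.8 and 30.9 CPM at 90 min (0.48, adjusted p = 0.0806). Like Dnm3os it is annotated as antisense, so its reads cannot be told apart from those of an overlapping gene. For Kcnq1ot1 the 60 min A library lay close to both 90 min libraries, and 60 min B was the lowest for Kcnq1ot1 and for Malat1.

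Short-lived transcripts taken as a panel showed little difference. Jun stood at 146 and 136 CPM and then at 136 and 131 CPM (log2 fold change -0.080, adjusted p = 0.717, edgeR). Myc stood at 135 and 125 CPM and then at 129 and 119 CPM (-0.064, adjusted p = 0.763), Junb at -0.035 and Ier2 at -0.065. The libraries of both times overlapped in Myc, Junb and Ier2 and were just separate in Jun. Fos, the partner of Jun in AP-1, had a mean count of 21.0 reads and a log2 fold change of 0.52 with an SE of 0.314 (adjusted p = 0.592). Among stable transcripts Gapdh had 0.049, Actb 0.048, Eef1a1 0.077 and Col1a1 0.085, none of which passed. The kinase gene Sgk1 was at 601 and 667 CPM, then 571 and 582 CPM (-0.14, adjusted p = 0.179), and the ubiquitin ligase gene G2e3 at 31.4 and 35.2 CPM, then 26.4 and 25.6 CPM (-0.36, adjusted p = 0.0806). For Sgk1 and G2e3 both 90 min libraries were below both 60 min libraries, as was the case for 20% of all genes tested.

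All 18 falls were of genes with a high share of new RNA. At 60 min their NTR ran from 33.0% (Fnip1) to 90.2% (Dnm3os) with a median of 51.1%, and at 90 min from 58.2% to 97.9% with a median of 69.6%. Over the 8999 genes whose counts averaged 100 or more, the medians were 15.5% and 24.4%, and the lowest of the falls stood at the 83.3rd percentile of these genes at 60 min. Old RNA was lower at 90 min in all 18, with a median change of -53.1%, and new RNA was higher in 14, with a median change of 18.8%. The direction for old RNA follows from the lower CPM by which the falls were chosen and from their higher NTR. Over all 8999 genes these medians were -10.9% for old and 53.8% for new RNA. The 4 genes with lower new RNA were Dnm3os, Stk17b, Gas1 and Trim59, and their new CPM differed by less than the replicate SD except in Dnm3os, at 16.8 ± 0.464 and then 12.4 ± 0.856 CPM (SD, n = 2).

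**Figure D2:**
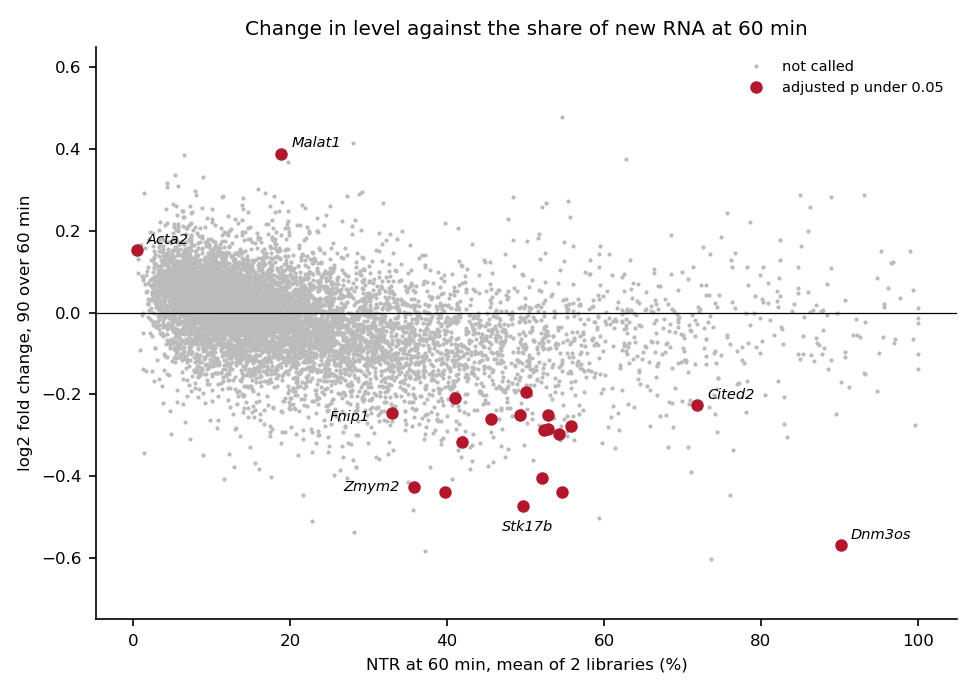
Log2 fold change of the level (90 over 60 min, edgeR) against the mean NTR at 60 min in percent for 8999 genes in grey, with the 20 genes past the test in red. The 18 genes that fell lie at an NTR of 33.0% or more, and Acta2 and Malat1 lie at 0.44% and 18.9%.

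The relation with the NTR extended over all genes as a small graded difference, seen in the plot of change against new share. Sorted into deciles by their mean NTR, genes of the lowest decile (median NTR 6.28%) had a median change of 0.057 ± 0.0094 on the log2 scale (SD over the 2 libraries at 90 min, each against the same mean of 60 min), and those of the highest decile (65.6%) had -0.069 ± 0.0090. The ninth decile was as low, at -0.073 ± 0.0128. Between the replicates 60 min A and B the same deciles gave 0.0037 and -0.034. With library sizes alone the end deciles were at 0.033 and -0.092, and with deciles taken from the 30 min libraries they were at 0.041 and -0.062. Spearman's rho across the 8999 genes, which are not independent replicates, was -0.474 for the mean of both 90 min libraries, -0.36 for A and -0.436 for B, and -0.0593 for 60 min A over 60 min B. The NTR and the level of a gene come from the same reads.

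The falling transcripts were also rich in uridine, a measure examined after the values were seen. For 17 of the 18 falls a protein-coding transcript with a 3′UTR was found, and U made up a median of 30.0% of its bases (21.5% to 34.1%). The median over 11075 genes was 24.7%, and 15 of the 17 lay above it. Genes not called lower, with an NTR at 60 min at or above the lowest of the falls, had a median of 25.2% (1457 genes). Coding sequence and 3′UTR both showed this, with medians of 26.3% and 34.5% in the falls against 21.6% and 29.3% over all genes. Zfp871 (34.1%), Pank3 (32.6%) and Map3k2 (31.8%) had the highest shares among the falls, and Gas1 (21.5%) and Cited2 (24.0%) the lowest. Of the genes in the short-lived panel, Jun had 20.4%, Ier2 19.2%, Junb 17.3% and Myc 21.5%, and Sgk1 had 28.9%. The letters TTATTTATT, an AU-rich element core, were searched on the transcript strand of the 3′UTR. They were present in 2 of the 17 falls (11.8%), in 8.47% of all genes and in 14.5% of the 1457 genes not called lower.

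**Figure D3:**
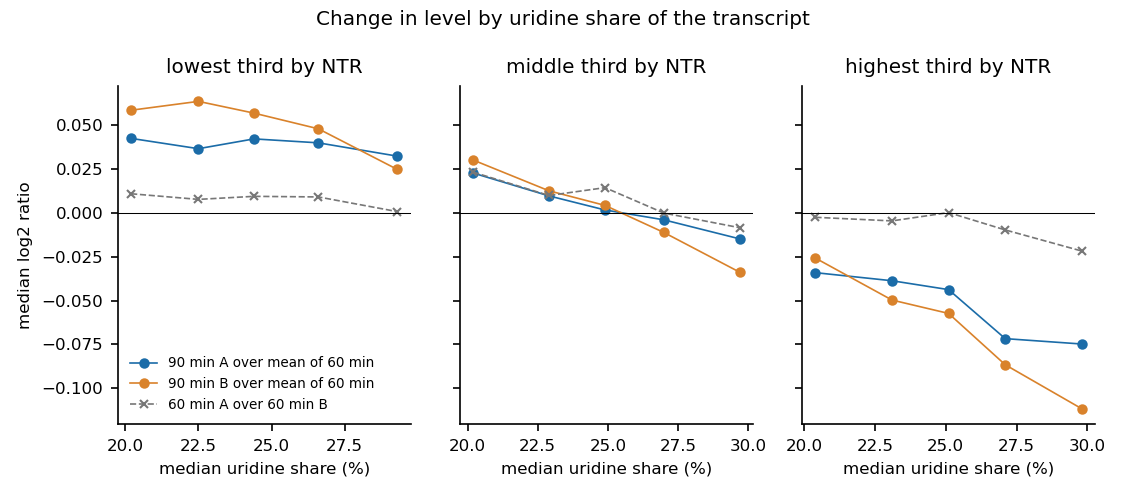
Median log2 ratio of the level against the median uridine share of the transcript in percent, in 5 equal groups within each tertile of NTR, for 90 min A (blue) and B (orange) over the mean of 60 min and for 60 min A over B (grey). In the highest tertile both coloured lines go down from the first to the last group, to -0.075 in A and -0.11 in B.

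Over all genes the uridine share and the change were related most where the NTR was high. In the highest tertile by NTR the median log2 fold change was -0.030 ± 0.0058 in the group of lowest uridine share (median 20.4%) and -0.093 ± 0.0260 in that of the highest (29.8%), while the 60 min replicates gave -0.0027 and -0.022. The lowest tertile ran from 0.050 to 0.028 and the middle tertile from 0.026 to -0.024. Spearman's rho of uridine share with the fold change was -0.111 in the lowest (2957 genes), -0.228 in the middle (2957) and -0.263 in the highest tertile (2958), and between the 60 min replicates it was -0.0446, -0.0862 and -0.0697. Differences between these values were not tested, and the part of the uridine share and of the NTR in the falls was not tested.

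New RNA accumulated in nearly all genes over the 30 min. The median NTR went from 15.4% ± 0.417 (SD, n = 2) at 60 min to 24.3% ± 1.41 at 90 min, and the new share of all reads of these genes from 14.6% ± 0.450 to 21.7% ± 1.14. The single libraries had medians of 15.1% and 15.7% and then 25.3% and 23.4%, so the replicates were further apart at 90 min. Of the 8999 genes, 8820 (98%) had a higher mean NTR at 90 min, and 6243 (69.4%) passed the test, 6241 of them higher (limma on log2 odds, Benjamini-Hochberg adjustment). The gain had a median of 8.69 percentage points, with 4.66 and 15.1 as quartiles and 1.47 and 25.1 as the 5th and 95th percentiles. The authors' 90% interval of the NTR of a gene had a median width of 7.29 to 8.24 percentage points in these libraries, close to the size of the median gain.

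The 8 largest gains included the transcription factors Foxj3 and Nfya. Foxj3, a forkhead factor at chr4:119537004-119629119 on the plus strand, went from 41.1% and 40.4% to 75.9% and 77.0%, a gain of 35.7 points (limma adjusted p = 0.00102). Prr12, a proline-rich nuclear protein gene, went from 35.5% and 40.2% to 70.8% and 74.3%, and Usp36, a nucleolar deubiquitinase, from 38.1% and 38.3% to 73.5% and 67.5%. These 3 genes began close together and both replicates of each stood far above at 90 min. Prdm2, a histone methyltransferase family member, reached 83.1% and 77.1%, and Nab2, the co-repressor of Egr factors, 76.7% and 79.6%. Zxdc, a zinc finger activator, reached 80.3% and 79.7%, Nfya, the subunit of the CCAAT factor NF-Y, 85.4% and 86.4%, and Rapgef2, an exchange factor for Rap1, 83.8% and 68.8%. The levels of these 8 genes did not pass the count test (edgeR adjusted p from 0.31 to 0.94).

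**Figure D4:**
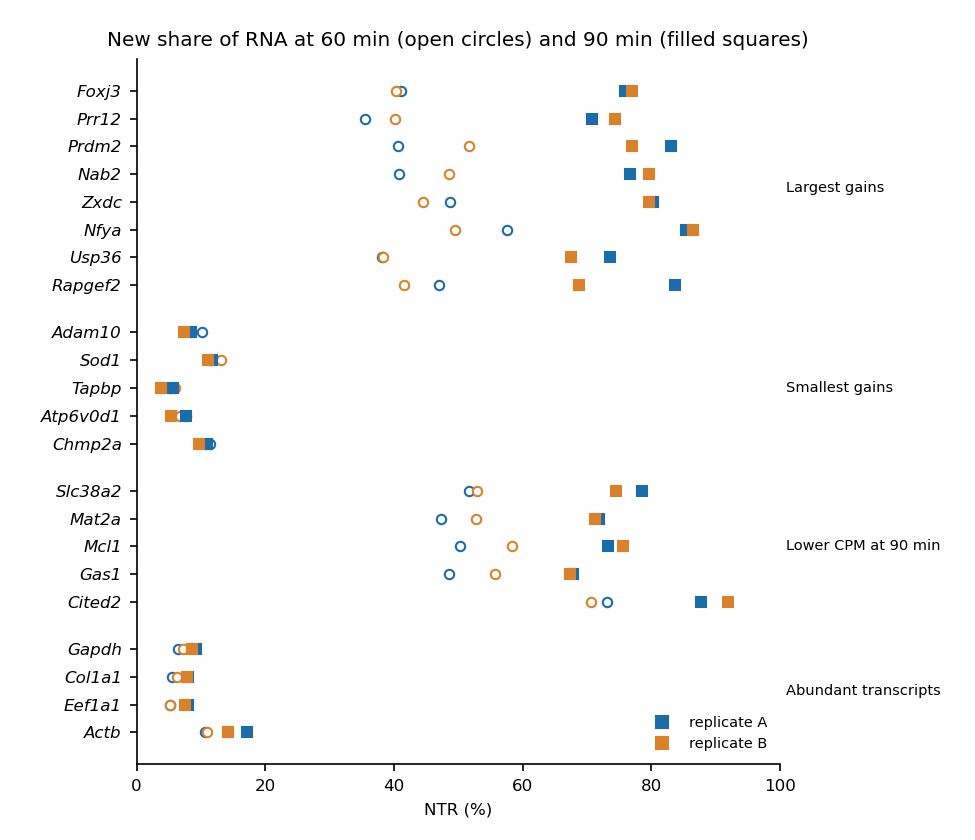
NTR in percent at 60 min (open circles) and 90 min (filled squares) for each library (blue A, orange B), for the 8 largest and 5 smallest gains, 5 genes whose level fell and 4 abundant stable transcripts. Foxj3 moved from 40.4% to 41.1% up to 75.9% to 77.0%, and the circles and squares of Adam10 to Chmp2a lie within a few points of each other.

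At the other end, the 5 smallest gains among genes averaging 500 or more counts were slight falls in mean NTR at 90 min. None of these 5 passed. Adam10, a membrane protease, had 10.1% and 8.24% at 60 min and 8.41% and 7.38% at 90 min (limma adjusted p = 0.281). Sod1, the cytosolic superoxide dismutase, had 11.6% and 13.1%, then 11.8% and 11.2% (0.504). Tapbp, which loads peptides on MHC class I, had 5.14% and 5.95%, then 5.69% and 3.74% (0.376). Times overlapped in Adam10, Sod1 and Tapbp, and the mean NTR of Atp6v0d1, a proton pump subunit, and Chmp2a, an ESCRT subunit, changed by under 1 point. A lower NTR passed the test in 2 genes (0.0222% of 8999). Tagln had 0.76% and 1.08%, then 0.40% and 0.67% (adjusted p = 0.0241), values whose deposited 90% intervals overlap. The non-coding gene 5430416N02Rik had 100.0% and 98.8%, then 89.2% and 86.9% (adjusted p = 0.00322), both genes being chosen after their values were seen. Its deposited 90% intervals overlap too, at 87.89% to 99.49% and 86.66% to 99.31%, then 80.48% to 95.19% and 76.74% to 94.08%. The 100.0% value was held at the upper limit set for the log2 odds. At 120 min the NTR of 5430416N02Rik was 96.1% and 99.97%.

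Some short-lived genes were already close to fully new at 60 min. Myc had 97.0% and 97.2% at 60 min and 100.0% in both libraries at 90 min, and Ier2 had 98.7% or more in all 4. Jun went from 88.7% and 86.1% to 94.6% and 95.2% (limma adjusted p = 0.00182), and Sgk1 from 87.4% and 89.6% to 99.7% and 99.3% (0.000543). Among stable transcripts the NTR was low but higher at 90 min, with Gapdh from 6.51% and 7.20% to 9.17% and 8.64% (0.0101) and Col1a1 from 5.49% and 6.36% to 7.97% and 7.81% (0.0101).

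Per kilobase, the largest gains in new RNA were in abundant messages. New RNA per kilobase is the new CPM divided by the deposited gene length (RPKM), and its gain was 145 for the elongation factor Eef1a1, from 259 and 251 to 420.3 and 379.8 RPKM. The ferritin light chain Ftl1 gained 128 and the chaperone Hsp90ab1 117. The cytoskeletal genes Tubb5 and Actb gained 84.2 each, the calcium-binding S100a4 81.9, the TWEAK receptor Tnfrsf12a 78.2 and the elongation factor Eef2 65.6. Tnfrsf12a stood apart from the other 7 by its NTR, 28.8% and 28.2% at 60 min and 47.0% and 42.8% at 90 min, while theirs was at most 16.1% at 60 min. Genes such as Eef1a1, Ftl1, Tubb5, Actb and Hsp90ab1 have near-identical copies or pseudogenes, among which reads could be divided, so their levels are uncertain.

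The apparent turnover rate of a gene is -ln(1-NTR) divided by time. It is the same at both durations if level and turnover are constant and labelling starts without delay. The rate was higher at 90 min in 73.6% of 8863 genes, with a median log2 change of 0.18 (1.13-fold). The 10th and 90th percentiles were -0.21 and 0.57. Which of these conditions did not hold was not tested. Nearly all changes of single genes did not pass after adjustment over the genes tested. Only Tmem147, a membrane protein of the endoplasmic reticulum at chr7:30727701-30729540 on the minus strand, passed (0.0113%), and 1192 genes (13.4%) were higher and 158 (1.78%) lower at an unadjusted p below 0.05 (limma). Tmem147 had an NTR of 1.56% and 1.78% at 60 min and 8.24% and 7.89% at 90 min, a log2 change in rate of 1.74 (SE 0.192, adjusted p = 0.00756), with a level of 65.7 and 59.9 CPM and then 68.8 and 64.5 CPM. It did not pass without 90 min A (adjusted p = 0.742) or without 90 min B (0.385). The 2 libraries at 90 min differed, since the median change over genes was 0.12 without 90 min A and 0.25 without 90 min B.

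The change in apparent rate was related to how far a gene extends along the genome, a relation examined after the values were seen. In the decile of shortest genes (median span 3.57 kb, GENCODE M21) the median log2 change was 0.046 ± 0.0792, with 0.10 in A and -0.0097 in B. In the decile of longest genes (182 kb) it was 0.26 ± 0.121, with 0.35 in A and 0.18 in B. The SD is over the 2 libraries at 90 min, each against the same mean of 60 min. The share of genes with a lower rate at 90 min went from 42.3% to 17.7% between these deciles. The 60 min replicates gave -0.080 and 0.0086, which is a difference in the same direction. Spearman's rho across 8855 genes was 0.197 for A, 0.131 for B and 0.0636 between the 60 min replicates, and for the mean of A and B it was 0.215, 0.149, 0.21 and 0.158 from the lowest to the highest quartile by NTR. Transcript length moved with the span and had a rho of 0.202 with the change, so the parts of the 2 cannot be told apart here.

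**Figure D5:**
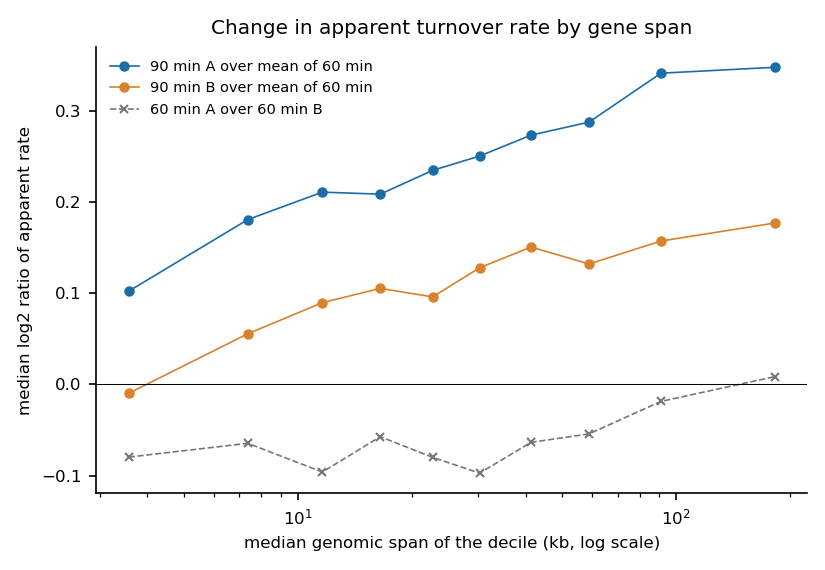
Median log2 ratio of the apparent turnover rate per decile of genes against the median genomic span of the decile in kb (log axis), for 90 min A (blue) and B (orange) over the mean of 60 min and for 60 min A over B (grey). A goes from 0.10 to 0.35 and B from -0.0097 to 0.18 from the shortest to the longest decile, and the grey line from -0.080 to 0.0086.

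By function, no list held more than 1 gene past the count test, beside 0.174% of all genes. As a background for this and the following lists, 4.06% of all genes tested were higher and 5.75% lower at an unadjusted p below 0.05 (edgeR). The median log2 fold change of all genes tested was -0.00052. Lists of low NTR had medians just above 0. Of 79 cytosolic ribosomal protein genes tested, 0 passed with edgeR or DESeq2, 28 were higher and 0 lower at an unadjusted p below 0.05, and all 79 had a log2 fold change above 0 with a median of 0.067. With library sizes alone the median was 0.042 and 1 of the 79 was below 0. Rplp0, of the ribosomal stalk, had 2536 and 2465 CPM and then 2621 and 2631 CPM (log2 fold change 0.071, adjusted p = 0.429). The median NTR of the list was 5.82% at 60 min and 8.45% at 90 min.

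Respiratory chain subunits had a median of 0.053 (74 genes, 0 passed, 10 higher and 0 lower unadjusted), glycolytic enzymes of 0.064 (17 genes, 0 passed, 6 and 1), chaperones of 0.045 (27, 0 passed, 4 and 0) and extracellular matrix genes of 0.046 (37, 0 passed, 9 and 2). The actin cytoskeleton list had a median of 0.070 over 40 genes with Acta2 as its rise, 15 higher and 1 lower unadjusted. Its other abundant members, Actb, Flna, Actg1 and Cfl1, had log2 fold changes from 0.048 to 0.11 and did not pass. With library sizes alone these 5 medians were 0.028, 0.039, 0.021, 0.021 and 0.046 in the same order. The median NTR of these lists was between 5.20% and 10.6% at 60 min.

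Several lists of higher NTR had medians below 0, though not the p53 targets or splicing factors. The mRNA decay machinery had -0.067 (35 genes, 0 passed, 1 higher and 7 lower unadjusted), with 29 below 0 and a median NTR of 20.1% and then 34.1%. Chromatin regulators had -0.050 (39 genes, 0 passed, 1 and 9) with an NTR of 32.5% and then 48.2%, and feedback genes of TGF-beta, Yap and NF-kB signalling had -0.077 (26 genes, 0 passed, 1 and 4) with an NTR of 56.9% and then 83.4%. Mitosis genes had -0.049 (45 genes, 0 passed, 2 and 9), with 32 below 0. Their most abundant members were near 0, with Top2a, which untangles chromosomes, at -0.033, Anln at 0.025 and Cdk1 at -0.027.

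Immediate early genes, with the highest median NTR of these lists (86.8%, then 95.6%), had a median of -0.042 (34 genes, 0 passed, 0 higher and 2 lower unadjusted). Ccn1, a matricellular Yap target, had 319.6 and 277 CPM, then 304 and 251 CPM (log2 fold change -0.10, adjusted p = 0.645), and Klf4 -0.046, so times overlapped in both. Targets of p53 had 0.049 (16 genes, 0 passed, 2 and 0) with an NTR of 32.2% and then 50.2%, and targets of Atf4 had -0.031 (20 genes, 0 passed, 0 and 1) with 43.2% and then 59.7%. Cholesterol genes had -0.0081 (23 genes, Hmgcs1 as a fall, 2 and 4), with Cyp51 at 0.0076 and Msmo1 at -0.061. DNA replication and repair had -0.010 (46 genes, 0 passed, 3 and 4). Splicing factors, with an NTR of 21.6% and then 29.97%, had 0.0063 (36 genes, 0 passed, 2 and 4), which became -0.018 with library sizes alone. Of 10 nuclear non-coding RNAs Malat1 rose and the median was -0.050, with Neat1 at -0.11 and Tug1 at -0.11, neither past the test.

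New RNA was gained in every list described here, by different amounts. The NTR passed the test as higher in 94.4% of the 18 Atf4 targets with enough reads, 92.6% of 27 chaperones, 92.3% of 39 chromatin regulators and 87.3% of 79 ribosomal protein genes, beside 69.4% of all genes. A larger share of genes passed at a mean count of at least 1000, as given below. These shares were not compared at equal read depth, so they do not set the lists apart from genes of like abundance. Fewer passed among respiratory chain subunits (51.4% of 74) and nuclear non-coding RNAs (4 of 8). The median gain was 2.31 points for ribosomal proteins and 2.52 for the respiratory chain, 13.9 for the decay machinery and 17.3 for chromatin regulators, beside 8.69 over all genes. The median log2 change in apparent rate was -0.073 for ribosomal proteins, 0.028 for the respiratory chain, 0.32 for the decay machinery and 0.31 for chromatin regulators, beside 0.18 over all genes.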

How the data were processed

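The authors deposited a table of 17419 genes with estimated counts, unscaled between libraries (20.4% of values not whole, tolerance 1e-06), which were rounded here. The NTR was deposited as a fraction, a posterior maximum with 0.05 and 0.95 quantiles per the file headers. The deposited alpha and beta columns, each a score without fixed range, were not used. Gene length was given in bases. The submitters' processing notes name cutadapt, Bowtie2 2.3.0 and STAR 2.7.10b without their roles; counting tool, genome build, annotation and strand setting: not given in the sources used here.

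Counts of the 10 labelled libraries were fitted with edgeR 4.0.16 in R 4.3.3 (filterByExpr, TMM, quasi-likelihood, common biological coefficient of variation 2.54%), with the contrast 90 minus 60 min and Benjamini-Hochberg adjustment. The other groups shared only the estimate of the spread, and unlabelled libraries were not used. The SE is the absolute log2 fold change over the square root of F. CPM use TMM library sizes. NTR (log2 odds, held within 0.001 and 0.999) and apparent rates (NTR between 0.01 and 0.99 in all 4 libraries) were tested with limma 3.58.1, trend on mean log2 count, in genes averaging 100 or more counts. DESeq2 1.42.0, other scalings, filters, a replicate block and leaving out each library were alternatives. Decile medians use log2 CPM plus a pseudocount of 1. The statistical steps were tested on simulated data.

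Named were the 12 largest rises and falls past the test, the 8 largest and 5 smallest NTR gains and rate changes past the test in genes averaging 500 or more counts, the 8 largest gains in new RNA per kilobase, list members past the test with the most abundant ones, and a panel of short-lived and stable transcripts. The members and lists were chosen with earlier results of these data known. Of 17419 IDs, 17376 matched GENCODE M21 (GRCm38), which may differ from the authors' annotation. The transcript with the longest 3′UTR gave the uridine share. Tests of 2 against 2 libraries by permutation cannot go below p = 0.333 and were not used. Figures were drawn with Python 3.11.15 and matplotlib 3.10.9.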

Additional observations from a re-analysis of the deposited data

How the results depend on the processing

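The 20 calls, 2 higher and 18 lower, became 38 (1 and 37) with library sizes alone, 2 (0 and 2) with DESeq2 and 47 (12 and 35) without a filter on low counts. RLE factors and unrounded counts gave 20, and a fit of the 4 libraries alone gave 21. Leaving out each library gave 1 to 25 calls, 0 to 3 higher and 1 to 22 lower. Whether the letters A and B pair the samples across durations is not given in the labels. The differences of A and B at 60 and at 90 min correlated across genes at 0.118 for counts and -0.0019 for NTR. The count value was the highest for any pair of labelled groups, and a weak correlation cannot decide whether libraries were paired. A replicate block gave 34 calls, 5 higher and 29 lower, 20 of them shared.

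For the NTR, 2480 of 2621 genes passed at a mean count of at least 1000, and leaving out each library gave 3774 to 5339. Calls of the apparent rate went from 1 to 72 at that count minimum, to 19 with the replicate block and to between 0 and 219 without each library. The lowest NTR decile was at 0.033 with library sizes alone and at 0.041 with deciles set by NTR at 30 min. Its counterpart at the top was at -0.092 with library sizes alone and between -0.083 and -0.053 without each library. Where calls changed, the cause was not tested. Under these alternatives none of the 20 genes past the count test changed sign in level, nor the 8 largest NTR gains in NTR, nor Tmem147 in rate; other NTR values were not refitted, except for the 5 smallest gains. Of named genes that did not pass, Junb (0.020 without 60 min A, 0.0036 without 90 min B), Ier2 (0.035 without 90 min B) and Lncpint (0.27, then -0.075 without 60 min B) did in level, and Tapbp (0.043) and Atp6v0d1 (0.095) did in NTR log2 odds without 90 min B. With 2 libraries a group, differences near the replicate spread were not detectable at this depth.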
